A study of Gallus gallus with 4 samples.

Results

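The 6 genes followed here make, bind, sense or break down retinoic acid, and their levels were read in 4 droplet libraries of embryonic chicken feathers. They are RDH10 (ENSGALG00000034346), ALDH1A2 (ENSGALG00000004270), ALDH1A3 (ENSGALG00000033365), CRABP-I (ENSGALG00000003193), RARB (ENSGALG00000011298) and CYP26B1 (ENSGALG00000016102). They were picked by symbol from the 16878 genes that the deposited tables list, by a rule that uses no measured value but with earlier results of these data known, and all 6 members were found, CRABP-I being the spelling of CRABP1 in these tables. The libraries came from dorsal-midline feathers of white leghorn embryos. Plucked feathers were sampled at 12 days (H&H stage 38, dissociated cells), 13 days (stage 39, nuclei) and 14 days (stage 40, nuclei), and at 12 days a strip of skin with its feathers still embedded was also dissociated into cells. H&H stages are the standard steps of chick development. Each of these 4 groups was 1 library, the number of embryos behind it is not given in the sources used here, and so no difference below has a replicate check or a p-value.

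Retinoic acid is a small signal derived from vitamin A. Retinol dehydrogenases such as RDH10 oxidise retinol to retinaldehyde, and retinaldehyde dehydrogenases such as ALDH1A2 and ALDH1A3 turn retinaldehyde into retinoic acid. Inside the cell it is carried by small binding proteins such as CRABP-I, acts on nuclear receptors such as RARB together with a retinoid X receptor, and is inactivated by cytochromes of the CYP26 family. In chick skin, added retinoic acid is known to turn leg scales into feathers.

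Barcodes were sorted by the genes they expressed. Epithelial barcodes carried at least 3 unique molecular identifiers (UMIs, the counted molecules) of GATA3 and KRT5, a keratinocyte factor and a basal keratin, and at most 5 of the collagen genes COL1A1 and COL1A2. Fibroblast barcodes carried at least 5 collagen UMIs and at most 2 of GATA3 and KRT5. In the day 12 plucked library 3791 epithelial and 853 fibroblast barcodes were found, against 1659 and 2298 in skin. Day 13 gave 2747 and 452, and day 14 gave 3000 and 367. The labels describe the skin sample as epidermis with feathers in it, yet its fibroblast barcodes outnumbered its epithelial ones. All 11 fibroblast markers were detected in all 4 fibroblast sums, at a summed 7915 to 22181 CPM, which stands here for counts per 1000000 UMIs once globin and mitochondrial UMIs are set aside. The same markers summed to 129 to 696 CPM in the epithelial gates. The 10 epithelial markers found of 12 summed to 4875 to 8117 CPM in the epithelial gates and to 511 to 1705 CPM in the fibroblast gates.

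The libraries held 8822 to 25075 barcodes and 56504070 to 72385294 UMIs. After filtering, a barcode held a median of 8537 UMIs (plucked) and 6797 UMIs (in skin) at day 12, but 2299 at day 13 and 2150 at day 14. Globins made up 45.3% of UMIs at day 13 and 43.7% at day 14, and between 20 and 176 barcode sequences occurred in any pair of libraries. HINTW, a gene of the female W chromosome, gave 214202 UMIs in the plucked day 12 library and 2 in the skin library, so these 2 libraries came from different embryos, and embryo sex and feather handling cannot be told apart between them. Cells and nuclei, age and counting software changed together between day 12 and the later days, so day 12 levels are set beside the later ones without a ratio.

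At day 12 the dehydrogenases ALDH1A2 and ALDH1A3 and the binding protein CRABP-I lay on opposite sides of the plucked and skin libraries. Among fibroblast barcodes, ALDH1A2 and ALDH1A3 were higher in plucked feathers and CRABP-I was higher in skin. As given below, RDH10 had overlapping intervals in the fibroblast gate, and CRABP2, another binding protein, was higher in plucked feathers. In plucked feathers ALDH1A2 gave 690 UMIs, or 173 CPM, with an exact Poisson 95% interval of 161 to 187 CPM, and in skin 158 UMIs, or 11.1 CPM (9.42 to 12.9). ALDH1A3 reached 504 CPM (482 to 526, 2005 UMIs) against 97.4 CPM (92.3 to 103, 1389 UMIs). CRABP-I ran the other way, with 29.1 CPM (24.1 to 34.9, 116 UMIs) in plucked feathers and 491 CPM (480 to 503, 7005 UMIs) in skin. None of these 3 pairs of intervals overlapped. These intervals cover counting error only.

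On the scale of log2(CPM + 10), which understates the change of low genes, the plucked over skin difference was 3.12 for ALDH1A2, 2.26 for ALDH1A3 and -3.68 for CRABP-I. A gene was called past the fold at a difference of 1 or more in either direction on this scale, provided that it reached 20 CPM in either sum. Of the 6 members 5 reached this minimum, 2 were higher and 1 lower in plucked feathers. Among all 6592 genes that reached it, 19.9% were past the fold, 17.4% higher and 2.5% lower. ALDH1A2 ranked 19 and ALDH1A3 ranked 84 from the highest ratio, and CRABP-I ranked 6591. The median gene itself differed by 0.38, and relative to it the 3 differences were 2.75, 1.88 and -4.05. Taken relative to the median gene, 491 genes were higher and 388 lower, against 1149 and 165 without that centring and 410 and 618 with TMM scaling, a trimmed-mean factor between the libraries. The calls of the 3 members held under both.

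**Figure D1:**
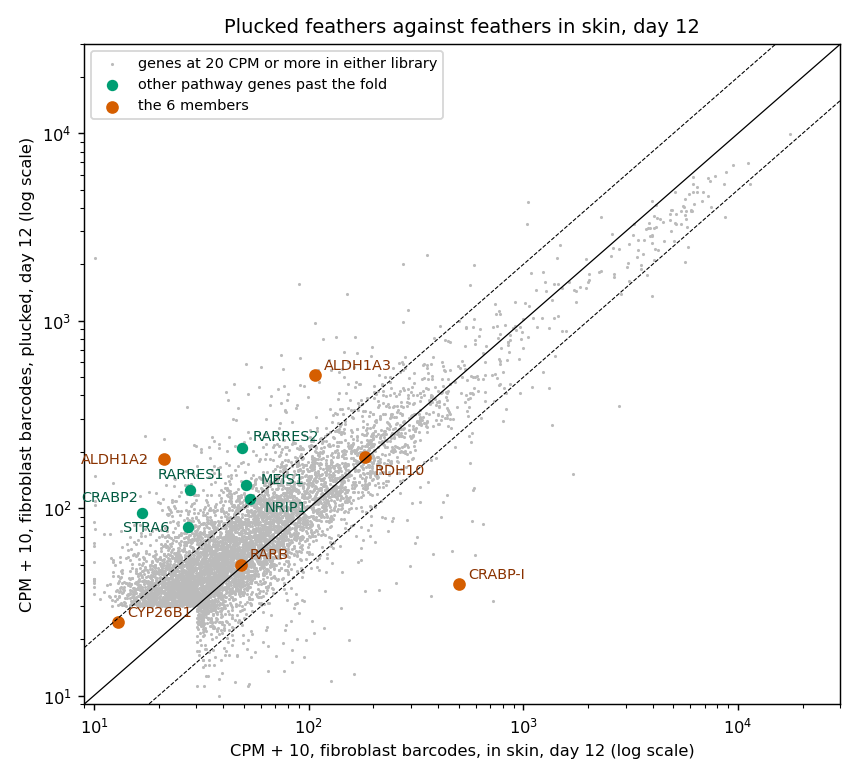
Level of every gene that reached 20 CPM in either library, in fibroblast barcodes of the skin library (horizontal axis, CPM + 10, log scale) and of the plucked library (vertical axis, CPM + 10, log scale), both at day 12. Orange points are the 6 members (CYP26B1 did not reach the minimum), green points are other pathway genes past the fold, the solid line is equality and the dashed lines mark a difference of 1 on the log2 scale. ALDH1A2 and ALDH1A3 lie above the upper dashed line, CRABP-I lies far below the lower one, and RARB and RDH10 lie on the line of equality.

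Read barcode by barcode, the same UMIs gave the same contrast, which is not further support. Barcodes of a library are not replicates, so the intervals below cover the sampling of barcodes only. To compare shares at equal depth, each barcode was thinned to 1000 non-globin, non-mitochondrial UMIs, which left out 13 fibroblast barcodes of the plucked and 29 of the skin library. An ALDH1A3 UMI was then found in 24.4% of plucked fibroblast barcodes (exact binomial interval 21.5 to 27.5%) and in 6.57% of those in skin (5.58 to 7.67%). For ALDH1A2 the shares were 11.1% (9.03 to 13.4%) and 0.926% (0.574 to 1.41%), and for CRABP-I they were 1.79% (1.00 to 2.93%) and 21.5% (19.8 to 23.3%). Without thinning they were 40.8% and 19.7% for ALDH1A3, 23.0% and 3.13% for ALDH1A2, and 7.03% and 40.7% for CRABP-I. Among epithelial barcodes of the same libraries none of the 3 genes exceeded 0.452% after thinning. Counted in the same UMIs, those barcodes were deeper, at medians of 10296 (plucked) and 12071 (in skin), against 4411 and 5927 in fibroblasts. The part of free RNA in these shares was not tested.

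Counted per barcode, 27.0% of thinned plucked fibroblasts had a UMI of ALDH1A2 or ALDH1A3 and none of CRABP-I, and 0.952% had the reverse. In skin the order turned, with 4.54% and 18.9%. Barcodes with ALDH1A2 held ALDH1A3 more often than fibroblast barcodes as a whole, though most barcodes with ALDH1A3 lacked ALDH1A2. Of barcodes with ALDH1A3, 31.2% held ALDH1A2 in plucked day 12 feathers and 4.70% in skin. At days 13 and 14, 25.5% and 17.9% did. In plucked feathers ALDH1A3 was found in 64 of the 93 barcodes with ALDH1A2 (68.8%, 58.4 to 78.0%), against 205 of all 840 (24.4%). In skin it was found in 7 of 21 (33.3%, 14.6 to 57.0%), against 6.57% of all, at day 13 in 12 of 35 (34.3%) against 12.3%, and at day 14 in 5 of 15 (33.3%) against 8.07%.

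In both libraries most ALDH1A3 UMIs lay in a minority of the fibroblasts. Barcodes with 3 or more ALDH1A3 UMIs numbered 238 of 853 in plucked feathers and 172 of 2298 in skin, and they carried 92.2% and 72.2% of the gate's ALDH1A3 UMIs. Their depth was higher than that of barcodes without the gene, with medians of 5514 against 3793 UMIs in plucked feathers and 6852.5 against 5744 UMIs in skin. The 15 genes that stood highest in these barcodes over those without ALDH1A3, among genes with a symbol and at 20 CPM, were listed in each library, and 9 of the 15 in either list were shared. This list was made after the values were seen and has no test. One of the shared genes was ALDH1A2, at 403 against 36.6 CPM in plucked feathers and 71.1 against 4.25 CPM in skin.

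Other shared genes belonged to several functions. CALB2, a calcium-binding protein, stood at 2894 against 355 CPM in plucked feathers and at 798 against 36.4 CPM in skin. GCH1, a GTP cyclohydrolase, stood at 224 against 13.5 CPM and at 58.3 against 3.89 CPM. PTGDS, a prostaglandin D synthase, stood at 272 against 17.3 CPM and at 88.7 against 5.88 CPM. CATHB1, a cathelicidin host-defence peptide, CYTL1, a small cytokine-like protein, and RAMP2, a partner of a peptide receptor, were also in both lists. The barcodes rich in ALDH1A2, 101 in plucked feathers and 15 in skin, shared CALB2, GCH1 and PTGDS among their 15 leading genes in both libraries.

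In skin, CRABP-I was higher in fibroblasts with TNMD, a membrane protein of tendon and other dense connective tissue, and ALDH1A2 was higher in those without it. CRABP-I stood at 768 CPM in the 1195 barcodes with a TNMD UMI and at 109 CPM in the 1103 without, while ALDH1A2 stood at 2.42 and 23.1 CPM. Median depths with and without TNMD were 6497 and 5307 UMIs. Barcodes with 3 or more CRABP-I UMIs, 594 in all, carried 93.6% of its UMIs. Their median depth was 7043 UMIs, against 5435 in barcodes without CRABP-I. Their leading genes over barcodes without it included TNMD at 1488 against 278 CPM, CA9, a carbonic anhydrase, at 198 against 20.9 CPM, SFRP2, a secreted modulator of WNT signalling, at 1054 against 259 CPM, and CXCL14, a chemokine, at 359 against 79.9 CPM. ALDH1A3 did not part from CRABP-I in skin: 59 of the 149 thinned barcodes with ALDH1A3 also held CRABP-I (39.6%, 31.7 to 47.9%), against 21.5% of all, and CRABP-I stood at 875 CPM in the ALDH1A3-rich barcodes against 396 CPM in those without ALDH1A3. In plucked feathers only 33 fibroblast barcodes held TNMD, and CRABP-I was 145 CPM in them and 23.0 CPM in the other 820.

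RDH10, which makes the substrate of both dehydrogenases, had overlapping intervals in the 2 libraries, at 178 CPM (165 to 192, 709 UMIs) in plucked feathers and 174 CPM (167 to 181, 2476 UMIs) in skin, a log2 difference of 0.03. In skin, however, most of it lay in barcodes with smooth muscle genes. The skin fibroblast gate held 429 barcodes with 5 or more UMIs of ACTG2 and MYH11, which encode smooth muscle actin and myosin, and these held 1862 of its 2476 RDH10 UMIs (75.2%). RDH10 stood at 679 CPM in them (649 to 711) and at 53.3 CPM in the other 1869. In plucked feathers only 28 such barcodes were found, with 121 CPM against 181 CPM elsewhere. When barcodes with these genes or with endothelial genes were left out, the difference became 1.57, higher in plucked feathers, and with at most 5% mitochondrial UMIs it was -0.81. The summed level of 9 smooth muscle and mural markers in the gate was 1053 CPM in plucked feathers and 3631 CPM in skin.

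The 3 parts of the skin fibroblast gate differed in these genes. The smooth muscle barcodes were high in RDH10 and held 2.92 CPM of ALDH1A3 and 2.55 CPM of ALDH1A2. The 1051 other barcodes with TNMD held CRABP-I at 856 CPM, ALDH1A3 at 122 CPM and RDH10 at 30.5 CPM, with ALDH1A2 at 2.05 CPM. The 818 barcodes with neither marker held ALDH1A2 at 32.3 CPM and CRABP-I at 81.5 CPM, with ALDH1A3 at 117 CPM and RDH10 at 92.9 CPM. In plucked feathers 799 of 853 barcodes held neither marker, and there ALDH1A2 was 186 CPM, ALDH1A3 534 CPM, RDH10 182 CPM and CRABP-I 21.0 CPM. This remainder is set by a lack of UMIs. In skin it was the shallowest part, at a median of 4995 UMIs, against 6509 in the TNMD part and 6119 in the smooth muscle part. It may hold different cells in plucked feathers and in skin. Within this remainder alone the plucked and skin intervals of ALDH1A2, ALDH1A3, RDH10 and CRABP-I did not overlap. As ratios, the CRABP-I and ALDH1A2 gaps were narrower than over the whole gate, at 491 and 11.1 CPM in skin against 29.1 and 173 CPM in plucked feathers. The ALDH1A3 gap was slightly narrower and the RDH10 gap wider. The 1051 TNMD barcodes held 89.3% of the skin gate's CRABP-I UMIs, and plucked feathers had 26 such barcodes. The part of gate make-up in the whole-gate differences was not tested.

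**Figure D2:**
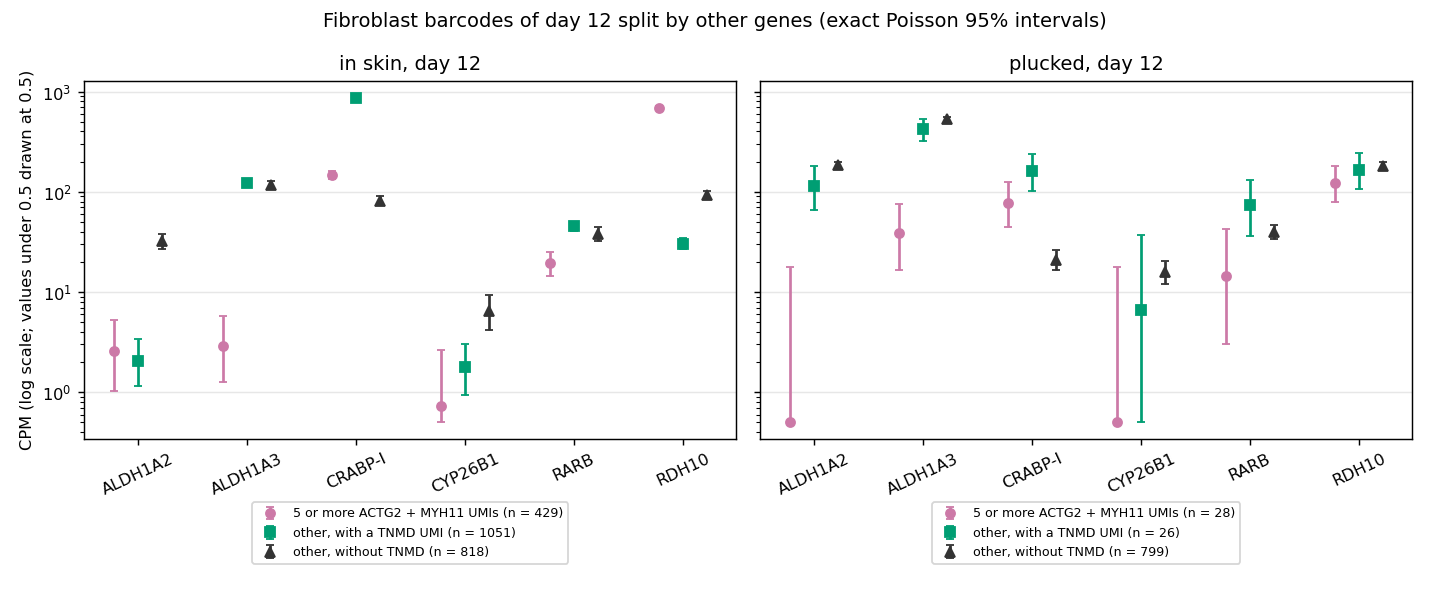
Levels of the 6 members (CPM, log scale, values under 0.5 drawn at 0.5) in 3 parts of the fibroblast gate of the skin library (left) and the plucked library (right) at day 12. Points are sums over barcodes and bars are exact Poisson 95% intervals. In skin RDH10 is highest in smooth muscle barcodes (679 CPM), CRABP-I in TNMD barcodes (856 CPM) and ALDH1A2 in the remainder (32.3 CPM).

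RARB, the receptor, had overlapping intervals in day 12 fibroblasts. It was 39.9 CPM (34.0 to 46.7, 159 UMIs) in plucked fibroblasts and 38.2 CPM (35.1 to 41.6, 545 UMIs) in skin, a log2 difference of 0.05 with an interval of -0.23 to 0.33. CYP26B1, the breakdown enzyme, was 14.6 CPM (11.1 to 18.8, 58 UMIs) and 2.94 CPM (2.12 to 3.98, 42 UMIs), and its intervals did not overlap. Without the pseudocount this is a 4.95-fold difference, beside 5.17-fold for ALDH1A3, and with it a log2 difference of 0.92. CYP26B1 stayed below the 20 CPM minimum in both libraries and so was not called.

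In the wider pathway list of 38 genes, 32 were found and 15 reached the minimum in day 12 fibroblasts, of which 6 were higher in plucked feathers and 0 lower, beside 17.4% higher and 2.5% lower among all genes. The list's median difference was 0.76, against 0.38 for all genes. Relative to the median gene, 4 of the 6 stayed past the fold, beside 491 higher of all 6592 genes. STRA6, the membrane receptor that takes up retinol, was 69.6 against 17.5 CPM (difference 1.53). CRABP2, the binding protein that delivers retinoic acid to the nucleus, was 84.4 against 6.80 CPM (2.49). RARRES1 and RARRES2, named for their induction by a retinoid in human skin, were 115 against 18.1 CPM (2.16) and 199 against 38.8 CPM (2.10). MEIS1, a homeobox cofactor, was 122 against 41.0 CPM (1.38), and NRIP1, a corepressor of nuclear receptors, was 101 against 43.4 CPM (1.06); relative to the median gene these 2 were not past the fold.

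Further genes of the list that reached 100 CPM in any gate and library did not pass the fold in this comparison. RBP5, a retinol-binding protein, was 125 against 79.6 CPM. NR2F2, an orphan nuclear receptor, was 200 against 98.0 CPM. MEIS2 was 70.1 against 99.9 CPM, RXRA, the partner of RARB, was 68.1 against 51.8 CPM, and the sister receptors RARA and RARG were 59.0 against 30.6 and 77.6 against 45.2 CPM. DHRS3, which reduces retinaldehyde back to retinol, was 20.6 against 25.2 CPM, and FABP5, a fatty acid binding protein that also carries retinoic acid, was 25.9 against 17.3 CPM. The related enzymes ALDH1A1, CYP26A1 and CYP26C1 were near 0 in day 12 fibroblasts, the highest being ALDH1A1 at 1.00 CPM (4 UMIs) in plucked feathers.

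In day 12 epithelium the synthesis, binding and breakdown genes were low and stayed under the 20 CPM minimum. ALDH1A2 was 2.18 CPM in plucked feathers and 1.53 CPM in skin, ALDH1A3 was 2.01 and 1.04 CPM, CRABP-I was 4.54 and 3.55 CPM, and CYP26B1 was 3.13 and 0.789 CPM. RDH10 was 15.1 CPM (14.0 to 16.3) and 5.91 CPM (4.90 to 7.07), with intervals apart. Only RARB reached 20 CPM, at 29.9 CPM (28.3 to 31.6, 1293 UMIs) and 35.9 CPM (33.3 to 38.6, 728 UMIs), with intervals apart. So 1 member could be compared, and at a log2 difference of -0.20 (-0.34 to -0.06) it was not past the fold. Of 5989 genes 14.9% were past the fold, 12.9% higher and 2.04% lower in plucked epithelium. The split was 773 higher and 122 lower, against 428 and 247 relative to the median gene and 369 and 361 with TMM scaling. Of the pathway list 9 genes reached the minimum and 0 were past the fold, NRIP1 coming nearest with 172 against 81.0 CPM.

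**Figure D3:**
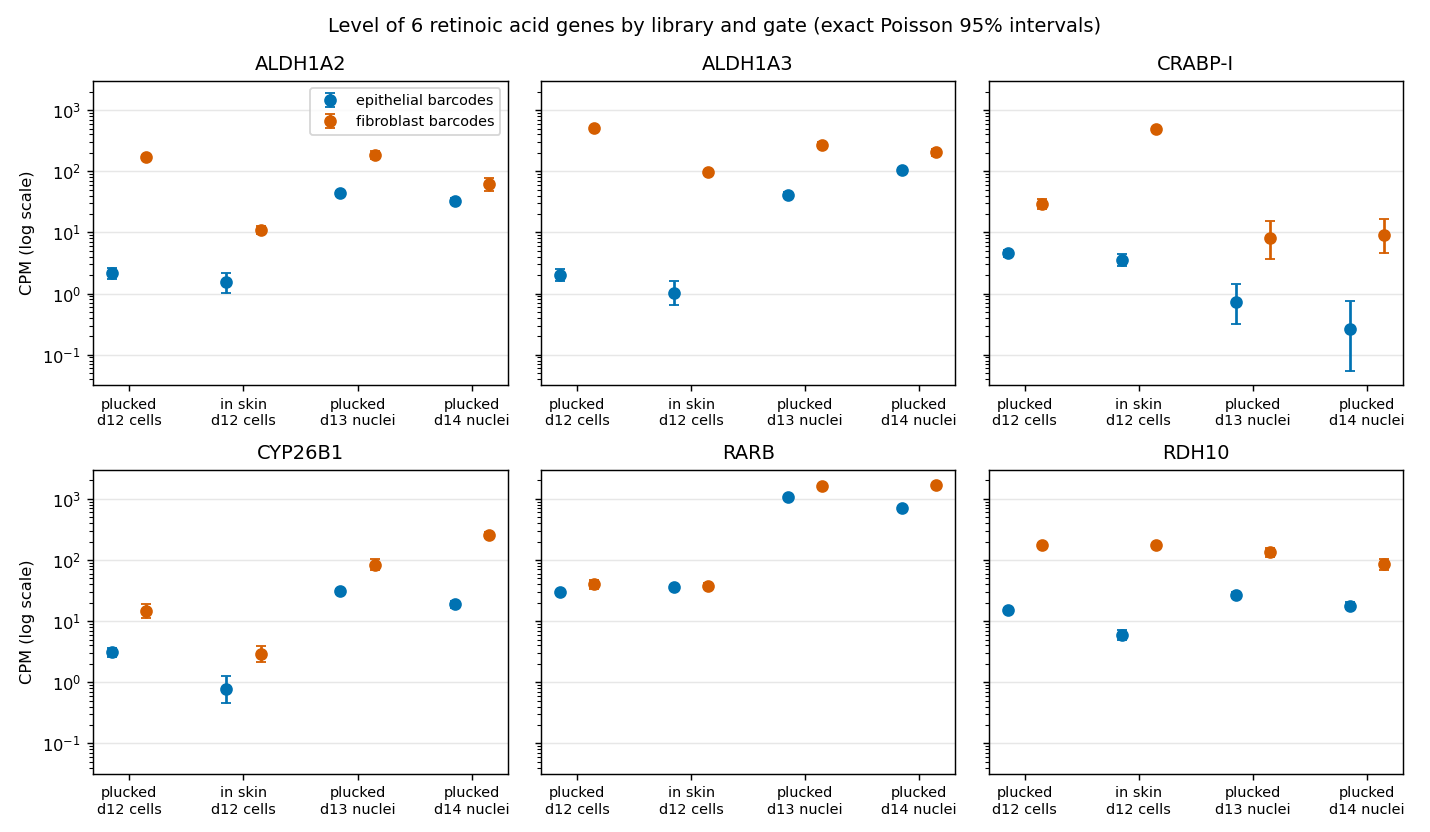
Level of each member (CPM, log scale) in epithelial (blue) and fibroblast (orange) barcodes of the 4 libraries, d being the day. Points are summed UMIs over 1 library and bars are exact Poisson 95% intervals. CRABP-I peaks in skin fibroblasts (491 CPM), CYP26B1 in day 14 fibroblasts (253 CPM), and RARB lies between 29.9 and 39.9 CPM in cells and between 708 and 1702 CPM in nuclei.

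Within each library most members were higher in fibroblasts. In plucked feathers at day 12, 4 of the 5 members that reached the minimum were lower in epithelium and 0 higher, where 27.8% of 7145 genes were past the fold, 9.9% higher and 17.9% lower. The epithelial over fibroblast differences were -5.42 for ALDH1A3, -3.91 for ALDH1A2, -2.90 for RDH10 and -1.43 for CRABP-I. In skin 3 of 4 were lower, where 26.5% of 5937 genes were past the fold (11.6% higher, 14.9% lower), with -5.21 for CRABP-I, -3.53 for RDH10 and -3.28 for ALDH1A3. At day 13, 4 of 5 were lower, where 20.2% of 7757 genes were past the fold (7.98% higher, 12.2% lower). They were ALDH1A3 at -2.45, RDH10 at -1.96, ALDH1A2 at -1.86 and CYP26B1 at -1.21, and with CPM over all UMIs CYP26B1 was at -0.99, short of the fold. At day 14, 3 of 5 were lower, where 28.2% of 7504 genes were past the fold (11.2% higher, 16.9% lower), with CYP26B1 at -3.18, RDH10 at -1.77 and RARB at -1.25. Other scalings moved the higher and lower counts of all genes from 707 and 1281 to 973 and 1119 in plucked day 12 (TMM), from 691 and 882 to 521 and 1036 in skin (relative to the median gene), and from 619 and 950 to 771 and 736 at day 13 (CPM over all UMIs). RARB differed least between the tissues, by -0.32, -0.07 and -0.56 in the first 3 of these comparisons. Of the pathway list 7 of 15 genes were lower in epithelium in plucked day 12 and 4 of 11 in skin, with 0 higher in both. In nuclei 4 of 11 were higher and 4 lower at day 13, and 2 higher and 4 lower at day 14.

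RARB in epithelium went with SHH, the hedgehog signal made by barb ridges. In plucked feathers at day 12 it was 54.7 CPM (49.6 to 60.2) in the 695 epithelial barcodes with an SHH UMI and 24.6 CPM (23.0 to 26.3) in the 3096 without. In skin it was 66.3 CPM (59.9 to 73.3) and 23.5 CPM (21.0 to 26.1). In day 13 nuclei it was 1340 CPM (1307 to 1373) with SHH, 888 CPM (864 to 912) without. In day 14 nuclei the values were 927 CPM (888 to 967) with SHH, 652 CPM (636 to 669) without. The barcodes with SHH were higher in all 4 libraries, and no pair of intervals overlapped. Median depths with and without SHH were 10170 and 10337 UMIs in plucked day 12, 13377.5 and 11518 in skin, 3625 and 2615.5 at day 13, and 3849 and 3064 at day 14, and their part in the result was not tested.

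In nuclei RARB stood far above its level in cells. Fibroblast nuclei gave 1608 CPM (1534 to 1684) for day 13 against 1702 CPM (1629 to 1777) for day 14. Epithelial nuclei gave 1088 CPM (1068 to 1107) against 708 CPM (693 to 723). Age, preparation and software version cannot be told apart here. Nuclei with a majority of globin UMIs, which should lack the gene, still gave 172 CPM of it on day 13 against 85.5 CPM on day 14. Thinned to 1000 UMIs, 61.4% of fibroblast nuclei (235 of 383) and 46.9% of epithelial nuclei held RARB at day 13, against 13.6% of erythroid ones. At day 14 these shares were 63.7%, 32.3% and 5.89%, and without thinning the 3 day 14 shares were 78.5%, 47.3% and 6.89%. Median depths, globin and mitochondrial UMIs left out, were 2227 and 3016 UMIs for fibroblast nuclei of days 13 and 14 and 1137 and 1119 for erythroid ones.

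From day 13 to day 14 CYP26B1, the enzyme that clears retinoic acid, went up past the fold in fibroblast nuclei and ALDH1A2, which makes it, went down past it. CYP26B1 gave 93 UMIs at day 13, or 83.6 CPM (67.5 to 102), against 304 UMIs at day 14, or 253 CPM (226 to 284). ALDH1A2 was 186 CPM (162 to 213, 207 UMIs) and 60.8 CPM (47.7 to 76.5, 73 UMIs). The log2 differences were 1.49 for CYP26B1 and -1.47 for ALDH1A2. These were the 1 higher and 1 lower of 5 members that reached the minimum, where 4.89% of 7533 genes were past the fold, 1.9% higher and 2.99% lower. Relative to the median gene the split of all genes was 207 higher and 152 lower, against 143 and 225 without centring, 203 and 157 with TMM scaling and 221 and 90 with CPM over all UMIs, and the 2 members stood at 1.62 and -1.34.

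The other members of these fibroblast nuclei did not pass the fold. ALDH1A3 was 271 CPM (242 to 304) and 203 CPM (179 to 231), a difference of -0.40, and RDH10 was 133 CPM (112 to 156) and 85.0 CPM (69.3 to 103), a difference of -0.59. RARB differed by 0.08. CRABP-I had 9 UMIs at day 13 and 11 at day 14, too few to compare. Epithelial markers in these fibroblast nuclei summed to 1705 CPM at day 13 and 591 CPM at day 14, and 58 of 452 and 16 of 367 barcodes had a majority of globin UMIs. With those globin-rich barcodes left out, a choice made after seeing the data, both calls were kept, and the part of the epithelial RNA in them was not tested.

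By share of thinned fibroblast nuclei, CYP26B1 went from 6.27% (4.06 to 9.18%) to 17.9% (14.0 to 22.3%), and ALDH1A2 from 9.14% (6.45 to 12.5%) to 4.32% (2.44 to 7.03%). Without thinning the shares were 12.6% and 26.4% for CYP26B1, and 13.9% and 7.63% for ALDH1A2. Erythroid nuclei held CYP26B1 in 0.312% and 0.225%, and ALDH1A2 in 1.13% and 0.563%. Few nuclei held both genes at day 14: of 62 thinned fibroblast nuclei with CYP26B1, 1 held ALDH1A2 (1.61%, 0.0408 to 8.66%), against 4.32% of all, a difference within counting error.

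The 48 day 14 fibroblast nuclei with 3 or more CYP26B1 UMIs held 79.3% of its UMIs. They had 12.0 CPM of ALDH1A2 against 78.8 CPM in the 270 nuclei without CYP26B1, from 2 and 70 UMIs. Their leading genes, picked by the same rule as above and with no test, included RGS7, a regulator of G-protein signals, at 467 against 22.5 CPM, COL13A1, a membrane collagen, at 844 against 96.8 CPM, GFRA1, a GDNF receptor, at 245 against 37.1 CPM, and TWIST2, a dermal transcription factor, at 3389 against 749 CPM. Median depths were 3131 and 3020 UMIs.

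In epithelial nuclei ALDH1A3 went up past the fold. It gave 450 UMIs at day 13, or 41.5 CPM (37.7 to 45.5), against 1215 UMIs at day 14, or 105 CPM (99.5 to 111), a log2 difference of 1.16. It was 1 of 5 members past the fold, where 4.84% of 7051 genes were past the fold, 2.35% higher and 2.48% lower. Relative to the median gene, 253 genes were higher and 94 lower, against 166 and 175 without centring and 280 and 84 with TMM scaling, and ALDH1A3 stood at 1.36. RARB differed by -0.61, CYP26B1 by -0.49, RDH10 by -0.40 and ALDH1A2 by -0.34, none past the fold.

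At day 13 erythroid nuclei, which should lack the gene, gave ALDH1A3 at 29.4 CPM (25.7 to 33.5), below the epithelial 41.5 CPM with intervals apart, and at day 14 they gave 13.2 CPM (10.7 to 16.1). After thinning, ALDH1A3 was found in 2.45% of epithelial and 2.66% of erythroid nuclei at day 13, so the epithelial share, though not the level, was no higher than the erythroid one. Median depths there, globin and mitochondrial UMIs left out, were 2858 UMIs in epithelial and 1137 UMIs in erythroid nuclei. The part of free RNA in either was not measured, so the erythroid share is not a measured background of the epithelial one. At day 14 it was found in 5.56% (4.72 to 6.49%) and 1.07% (0.758 to 1.47%). Without thinning the 4 shares were 7.03%, 3.17%, 11.6% and 1.53%. Strict epithelial gates asked for at least 5 UMIs of GATA3 and KRT5 and at most 1 collagen UMI. They left 1208 nuclei at day 13 and 1971 at day 14, and the day 14 over day 13 difference was then 2.18. At day 13 the thinned RDH10 shares were likewise close, at 1.98% of epithelial and 1.73% of erythroid nuclei. Those of ALDH1A2 (3.85% and 1.13%) and CYP26B1 (2.45% and 0.312%) were higher in epithelial nuclei. RDH10 itself was 26.8 CPM (23.8 to 30.1) in epithelial and 19.8 CPM (16.8 to 23.3) in erythroid nuclei, with intervals apart. Without thinning the RDH10 shares were 7.68% and 2.18%.

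The day 14 epithelial signal was concentrated, with 129 of 3000 nuclei holding 78.2% of the ALDH1A3 UMIs and up to 48 UMIs in 1 nucleus. These nuclei were deeper, at a median of 4462 UMIs against 3062 in the 2653 without the gene. RARB was 309 CPM in them against 783 CPM, and 21 of the 149 thinned epithelial nuclei with ALDH1A3 held RARB, against 867 of all 2682. Their leading genes included RSPO2, an enhancer of WNT signalling, at 97.8 against 6.37 CPM, NRG2, an ERBB receptor ligand, at 97.8 against 9.19 CPM, and HHIP, a hedgehog-binding inhibitor, at 96.5 against 19.4 CPM. Also among them were LAMA4, a laminin chain, at 147 against 38.1 CPM, and COL26A1, a collagen, at 49.5 against 9.50 CPM. Scrublet, a doublet caller, marked 987 of the 3000 nuclei of this gate. The part of mixed barcodes in the ALDH1A3-rich nuclei was not tested.

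**Figure D4:**
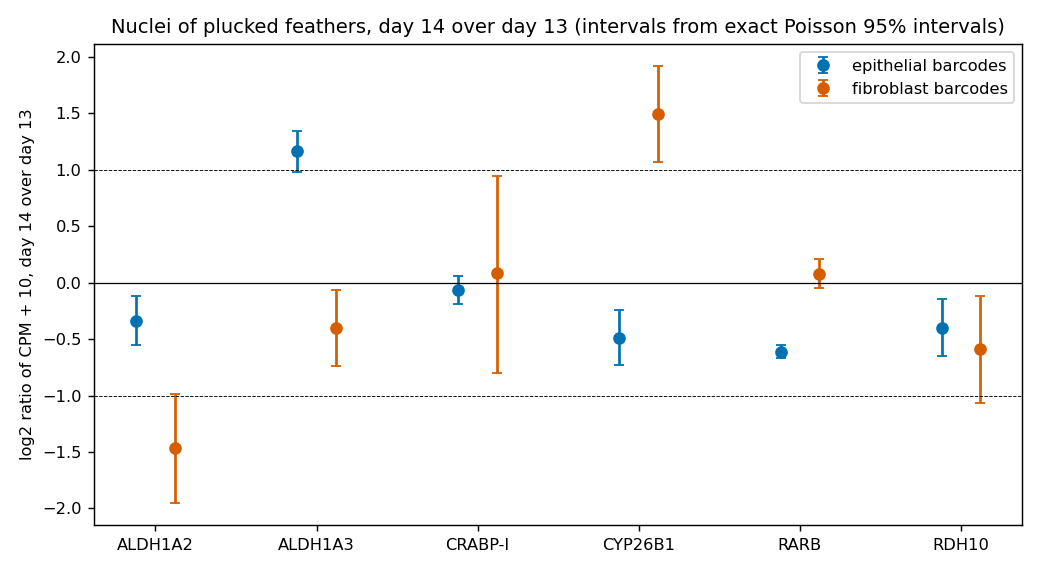
Difference of log2(CPM + 10) between day 14 and day 13 nuclei for each member in epithelial (blue) and fibroblast (orange) barcodes. Bars combine the exact Poisson 95% intervals of the 2 sums and dashed lines mark the fold threshold. ALDH1A3 passes it in epithelium (1.16), and in fibroblasts CYP26B1 passes it upward (1.49) and ALDH1A2 downward (-1.47).

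In the pathway list, 12 genes reached the minimum in fibroblast nuclei and 10 in epithelial nuclei, and FABP5 was the 1 gene past the fold in each, where 4.89% and 4.84% of all genes were. It went from 6.29 CPM (7 UMIs) to 56.7 CPM (68 UMIs) in fibroblasts, a difference of 2.03, and from 51.1 CPM to 356 CPM in epithelium, a difference of 2.58. Epithelial markers summed to 1705 CPM at day 13 and 591 CPM at day 14 in the fibroblast nuclei. The part of epithelial RNA in the fibroblast FABP5 level was not tested. Relative to the median gene 3 list genes were higher in fibroblasts and 1 in epithelium, NR2F2 being among the former (114 and 228 CPM). On that scale 207 of all 7533 genes were higher in fibroblasts and 253 of all 7051 in epithelium. In epithelium DHRS3 went from 191 to 91.8 CPM, which was not past the fold. NRIP1 stood at 1029 and 928 CPM in epithelium and 403 and 402 CPM in fibroblasts, and RXRA at 677 and 659 CPM and at 386 and 407 CPM. MEIS1 and MEIS2 stood at 642 and 570 CPM in day 13 fibroblasts, against 109 and 98.3 CPM in epithelium.

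**Figure D5:**
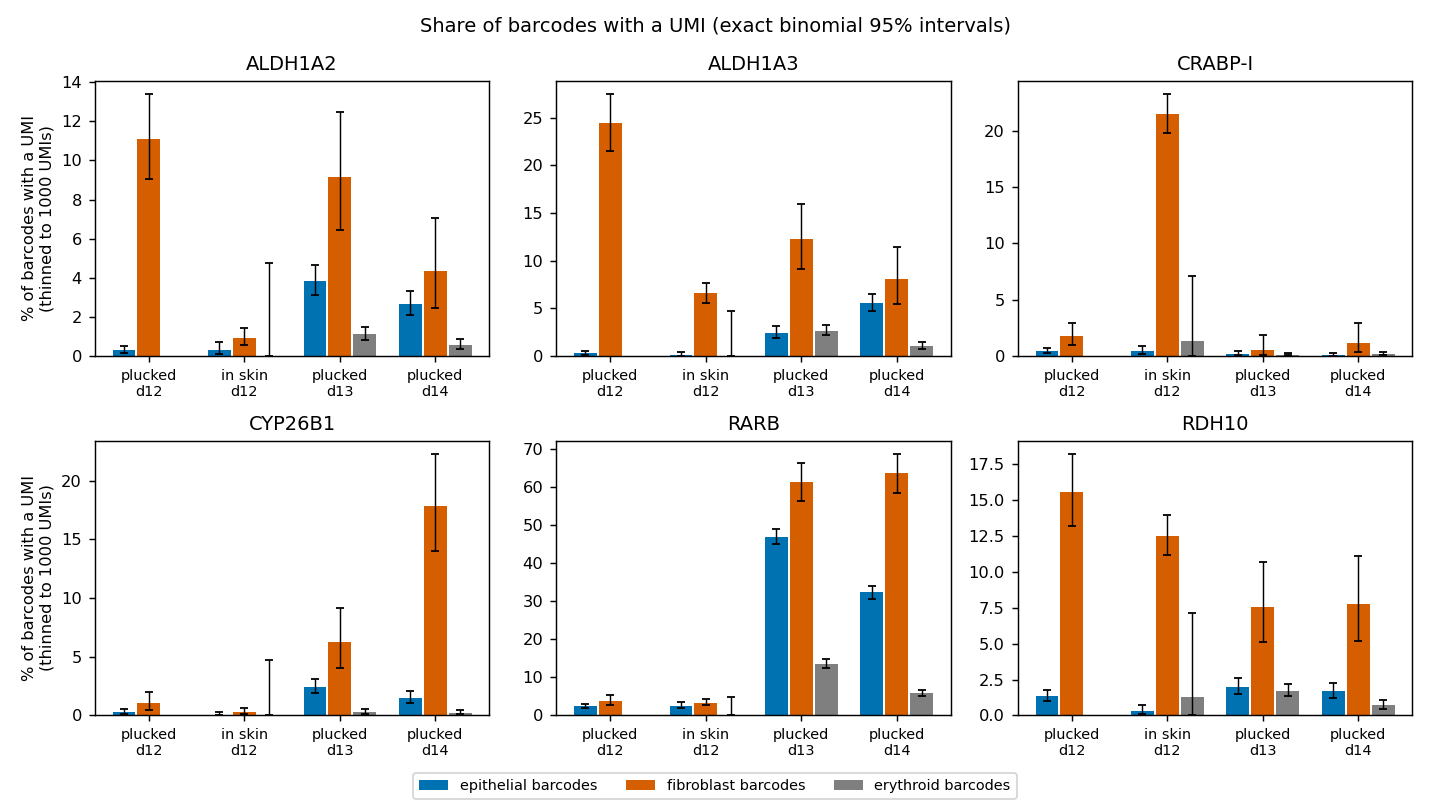
Share of barcodes with at least 1 UMI of each member after thinning to 1000 UMIs, in epithelial (blue), fibroblast (orange) and erythroid (grey) barcodes of the 4 libraries, with exact binomial 95% intervals. The erythroid bars come from shallower barcodes, in which the part of free RNA was not measured. They are not drawn for plucked day 12, where only 3 such barcodes were deep enough. Axes differ between genes; ALDH1A3 in day 13 epithelium (2.45%) is no higher than in erythroid nuclei (2.66%).

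Across the 8 sums of gate by library, the order of levels differed by gene. The day 12 sums come from cells and the later ones from nuclei, with different software. An order across that divide cannot be read as a change with age. ALDH1A2 was highest in day 13 and day 12 plucked fibroblasts, whose intervals overlapped, and next in day 14 fibroblasts, which overlapped day 13 epithelium. ALDH1A3 was highest in day 12, then day 13, then day 14 plucked fibroblasts without overlap, and next day 14 epithelium and skin fibroblasts overlapped. CRABP-I was highest in skin fibroblasts, then in plucked day 12 fibroblasts, with no overlap, and the 2 nuclear fibroblast sums below them overlapped. CYP26B1 was highest in day 14 and then day 13 fibroblasts, without overlap. RARB did not differ beyond counting error between the 2 nuclear fibroblast sums, nor RDH10 between the 2 day 12 fibroblast sums.

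Other genes had closely matching levels over 14 sums of gate by library, which share libraries and depth, so that the correlations describe these data only. The sums also mix cells and nuclei. By Pearson's r of log2(CPM + 10) among 8871 genes, CRABP-I was most like FIBIN (0.98), TNMD (0.97) and ACTG2 (0.96). ALDH1A2 was most like MAPK10 (0.95), IGF2 (0.94) and DNAH10 (0.93), and ALDH1A3 most like WNT11 (0.94), RASGEF1B (0.93) and GUCY1A2 (0.91). CYP26B1 was most like TMEM132B (0.98), SORCS1 (0.97) and SORCS2 (0.96), RDH10 like RAB11FIP2 (0.97), SEMA3F (0.97) and ATOH8 (0.96), and RARB like TRABD2B, SUGCT and METTL15P1 (each 0.99).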

How the data were processed

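The authors deposited 1 count matrix per library, UMI counts per gene and barcode in the filtered form of Cell Ranger, version 3.1.0 for day 12 and 7.0.0 for days 13 and 14 per the file headers. The submitters' processing notes name version 7.0.0 and genome build GRCg6a for all. Whether intronic reads were counted is not given in the sources used here. No annotation of that build was used, so no coordinates or sequences are given.

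Barcodes with at least 500 UMIs, 300 genes and at most 10% mitochondrial UMIs were kept, and CPM left out 7 globin and 13 mitochondrial genes. The filter removed 4737, 3410, 2464 and 1205 barcodes over the mitochondrial limit. Erythroid barcodes had 50% or more globin UMIs outside both gates. Barcodes outside all gates, 22.6% and 23.5% at day 12 and 51.3% and 52.4% in nuclei, entered no comparison. At days 13 and 14 they held 1353 and 740 ALDH1A3 UMIs, or 96.5 and 50.7 CPM. In them CYP26B1 was 25.8 and 22.5 CPM and ALDH1A2 46.0 and 23.5 CPM. The rises of CYP26B1 and ALDH1A3 between these days given above therefore hold for the named gates alone. ALDH1A2 was lower at day 14 in these barcodes as well, and in erythroid nuclei, at 12.1 and 5.54 CPM. Doublets were limited by the gates alone, and Scrublet (scanpy 1.11.5) was an alternative that marked 2.19%, 0.961%, 22.3% and 36.7% of barcodes.

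With 1 library per group no test was made. Ratios were computed for every gene with Python 3.11.15, scipy 1.17.1 and a pseudocount of 10 CPM, and checked on simulated counts. edgeR 4.0.16 gave TMM factors. All members were described, with list genes past the fold in day 12 fibroblasts or at 100 CPM, and the 3 most similar genes for each member. The members and lists were chosen with earlier results of these data known. The smooth muscle split and the genes of rich barcodes were chosen after their values were seen. Some genes that these rules would name are not reported here.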

Additional observations from a re-analysis of the deposited data

Results flagged for a closer look

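Between day 13 and day 14, 2 genes had differences of opposite sign in the 2 tissues, each past the fold in 1 tissue alone. ALDH1A3 differed by -0.40 in fibroblast nuclei and by 1.16 in epithelial nuclei on the log2(CPM + 10) scale. CYP26B1 differed by 1.49 in fibroblast nuclei and by -0.49 in epithelial nuclei. Each group was 1 library, and the difference between tissues was not tested.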

How the results depend on the processing

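Each of 48 member differences (6 members in 8 comparisons) was recomputed under 13 alternatives, of which 2 were chosen after seeing the data: leaving out globin-majority barcodes and leaving out barcode sequences shared by libraries. The counts of members past the fold were within 1.5 times the values given in all 208 cases. With so few members, gaining or losing a single call can stay within that range, so these counts cannot show stability. Of 20 differences past the fold, 19 kept their call and 0 turned sign. The 1 that lost it was CYP26B1 in day 13 epithelium over fibroblasts, -1.21, which was -0.99 with CPM over all UMIs. Past the fold were newly RDH10 in day 12 fibroblasts (1.57) and ALDH1A3 in day 14 epithelium over fibroblasts (-1.07) without smooth muscle and endothelial barcodes, and CRABP-I in day 13 epithelium over fibroblasts (-1.82, from 8 and 9 UMIs) with each barcode weighted equally. RDH10 in day 12 fibroblasts ranged from -0.81 to 1.57. The counts over all genes left the range of 1.5 times in 26 of 224 cases. With TMM scaling 410 genes were higher and 618 lower in plucked day 12 fibroblasts, 369 and 361 in day 12 epithelium, and 280 and 84 in day 14 epithelium. Relative to the median gene day 12 epithelium had 428 and 247. With CPM over all UMIs day 14 fibroblasts had 221 and 90. With a pseudocount of 1 CPM there were 1741 higher in day 12 fibroblasts, 1187 higher and 220 lower in day 12 epithelium, 251 and 462 in day 14 fibroblasts, and 345 lower in day 14 epithelium. Strict gates gave 328 and 410 in day 14 fibroblasts and 1162 higher in day 13 epithelium over fibroblasts. With at most 5% mitochondrial UMIs 313 were lower in day 12 epithelium, equal weights gave 405 lower in day 14 fibroblasts, and without Scrublet barcodes 304 were lower in day 14 epithelium. The cause was not tested. Shares moved beyond their intervals in 80 of 96 cases with 500 UMIs or no thinning, which changes the depth itself. No paired analysis was possible because each group is 1 library. CRABP-I was scarce in nuclei, with 3 to 11 UMIs in a sum, which limits its comparisons there.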
